A study of Mus musculus with 16 samples.

Results

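The carboxylesterase genes measured here are Ces1b, Ces1c, Ces1d, Ces1e, Ces1f, Ces1g, Ces2a, Ces2e, Ces3a and Ces3b, taken by gene symbol as 10 of the 22612 genes listed in RNA sequencing of mouse liver. The study held 16 libraries, 4 from each of 4 diet groups of male C57BL/6 mice that were bought at 7 weeks of age, acclimated for 1 week and then fed for 16 weeks. The chow group ate chow with 11% of its energy as fat. The high-fat group ate a diet with 58% of its energy as fat throughout. The chow-alternating group switched between that high-fat diet and chow, and the ketogenic-alternating group between the high-fat diet and a ketogenic diet with 90.5% of its energy as fat, both in intervals of 2 weeks. No group carried a transgene or a drug, and the mice were fasted overnight before the livers were collected. Each group had 6 mice and 4 libraries, and the labels do not say which diet was eaten last in the alternating groups or whether different libraries stem from different mice, so p-values reflect the spread between these libraries, which may be technical in part.

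Carboxylesterases are serine hydrolases that split ester and amide bonds, in drugs and pesticides as well as in triacylglycerols, cholesteryl esters and retinyl esters. In the liver most of them sit in the lumen of the endoplasmic reticulum of hepatocytes, where they take part in clearing ester drugs and in handling stored lipid, including lipid that is packed into very-low-density lipoprotein (VLDL). Several are known to respond to the nuclear receptors CAR and PXR, which sense foreign compounds and also control cytochrome P450 genes.

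All 10 genes lie on chromosome 8 of the mm10 build in 2 clusters, each read from a single strand. The Ces1 cluster, with 6 of the genes on the minus strand, spans 281 kb from 93056728 to 93337308. The cluster of Ces2a, Ces2e, Ces3a and Ces3b, on the plus strand, spans 360 kb from 104734003 to 105093929. All 10 are annotated as protein-coding. The coding sequences of Ces3a and Ces3b were 95.3% identical and those of Ces1b and Ces1c 91.1%, while Ces2a and Ces2e were 83.3% identical and the closest pairs among Ces1d, Ces1e, Ces1f and Ces1g were 78.8% to 81.5% identical. Reads that fit more than 1 copy are divided by estimation, so the split between Ces3a and Ces3b and between Ces1b and Ces1c is less certain than the others. Of the stretches of 150 bases in the main transcript, 2.37% for Ces3a and 2.0% for Ces3b occurred in another carboxylesterase gene, against none for the other 8 genes; at 31 bases the share was 42.6% for Ces3a, 36.1% for Ces3b, 26.6% for Ces1c, 23.1% for Ces1b and 4.91% to 11.0% for the rest.

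The deposited values are TPM, a length-corrected share of all transcripts that is scaled to the same sum in every library, so sequencing depth is unknown. The 20 most abundant genes took 27.1% to 38.8% of a library, and mitochondrially encoded genes 8.61% to 18.4%, highest in chow replicate 3. Defining hepatocyte genes were high throughout: the summed level of 10 markers was 110000 to 117400 TPM in chow, 98670 to 141400 in high-fat, 120800 to 131400 in chow-alternating and 96800 to 106000 in ketogenic-alternating libraries. Among markers of tissues that also make carboxylesterases, the 5 kidney markers summed to at most 0.12 TPM in any library, and of the 5 intestinal markers measured only Fabp2 exceeded 0.886 TPM. The adipocyte list of 7 genes summed to 63.0 to 95.2 TPM in ketogenic-alternating libraries against 4.92 to 13.3 in chow, through Cidec, Cfd and Lipe, while Lep was listed at 0 in all 16 libraries and Adipoq and Plin1 stayed at or below 0.921 TPM. In bulk tissue, fewer cells of a type and less RNA per cell cannot be told apart.

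Ces1c, which encodes a carboxylesterase secreted into plasma, was the most abundant member, with 1903 ± 375 TPM (mean ± SD over 16 libraries) and 38.8% of the family's summed TPM. Ces3a followed with 1195 ± 237 TPM, and the pair together held most of the family's RNA. Ces1d, known as triacylglycerol hydrolase, averaged 562 TPM, Ces1f 341, Ces3b 257, Ces2a 222, Ces1g 140, Ces2e 109, Ces1e 88.5 and Ces1b 74.1 TPM. TPM is scaled by transcript length, so these levels can be compared between genes. Neighbours in this order were not always separated: Ces1c exceeded Ces3a in 14 of 16 libraries, Ces3b exceeded Ces2a in 11, and Ces2a exceeded Ces1g in 12 and Ces1e exceeded Ces1b in 12, whereas Ces3a exceeded Ces1d in all 16. The members differed most in how far they varied. Ces2a spanned 6.19-fold between its lowest and highest library, with a coefficient of variation of 56.4%, and Ces1d 4.15-fold, while Ces1f spanned 1.7-fold, Ces1c 1.85-fold and Ces2e 1.86-fold.

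**Figure D1:**
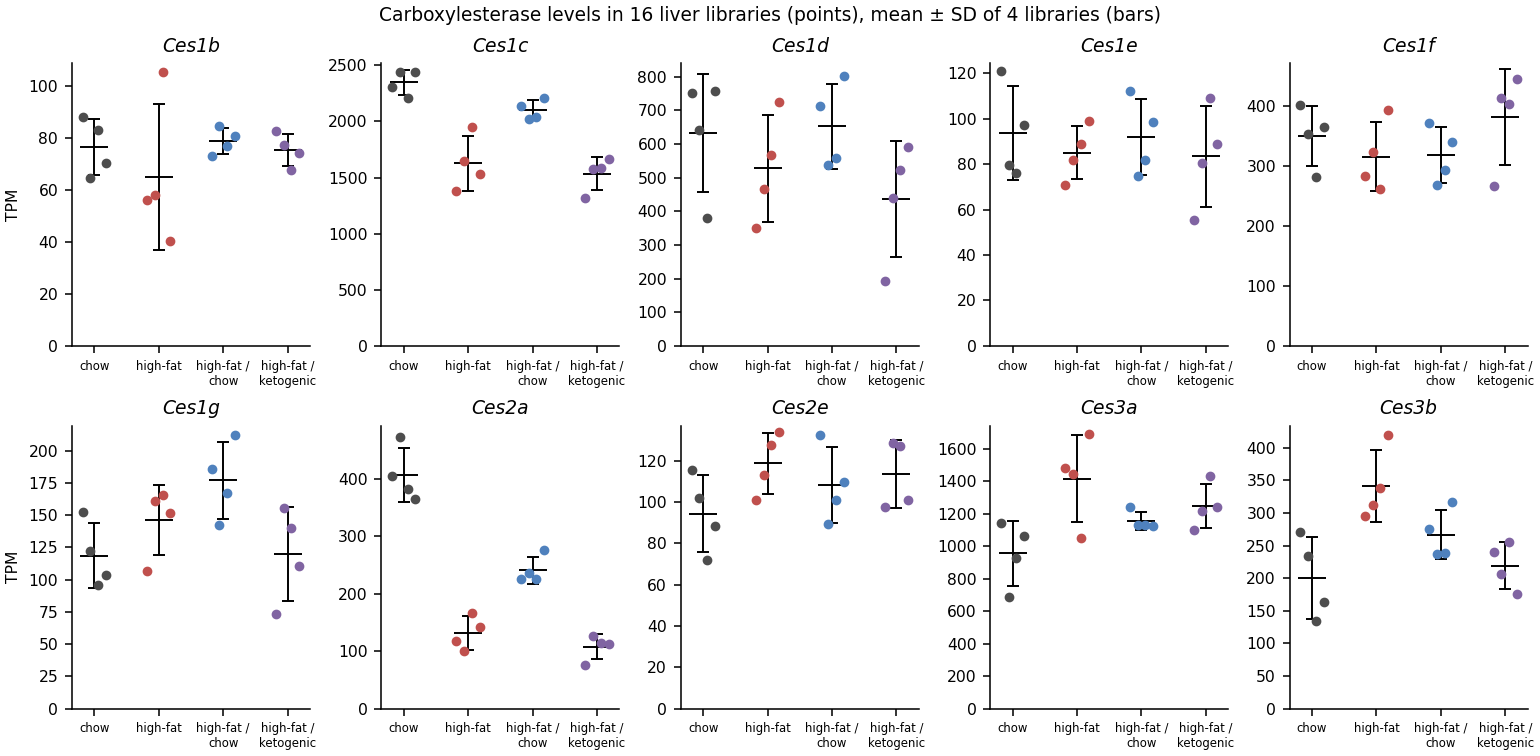
TPM of each of the 10 carboxylesterases (vertical axis, linear, from 0) in the 4 diet groups (horizontal axis), with a point for each of the 4 libraries of a group in replicate order and bars for the mean ± SD. Ces2a falls into separate ranges for chow (365 to 473 TPM), chow-alternating (225 to 276) and the high-fat and ketogenic-alternating libraries (76.4 to 167), whereas most other members overlap between groups.

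Differences between diets were tested with limma on log2(TPM + 1) in the 8 libraries of each comparison, over all genes that reached 1 TPM in 4 or more of them, and a gene is said to have changed at a Benjamini-Hochberg adjusted p below 0.05. All 10 members passed that filter in all 6 comparisons. The members were chosen with earlier results of these data known. In high-fat against chow libraries 1 member changed, Ces2a, which fell. Of all 10960 genes tested there, 1.06% changed in either direction and 0.484% fell. In chow-alternating against chow libraries Ces2a alone changed, and it fell, where 1.16% of all genes changed and 0.516% fell. In ketogenic-alternating against chow libraries Ces2a and Ces1c fell, where 5% of all genes changed and 1.33% fell. The same 2 genes fell in ketogenic-alternating against chow-alternating libraries, where 5.04% of all genes changed and 0.727% fell. No member changed in chow-alternating against high-fat libraries, beside 0.0459% of all genes, or in ketogenic-alternating against high-fat libraries, beside 0.036%. At an unadjusted p below 0.05 the former comparison held 3 of the 10 members, beside 452 of all 10899 genes tested. The latter held 1 of the 10, beside 1116 of all 11108 genes tested. No member rose by this test in any comparison. The median log2 difference of all genes was 0.15 to 0.21 in the 3 comparisons of ketogenic-alternating libraries and between -0.054 and 0.022 in the others, and the members' medians were -0.14 (high-fat minus chow), 0.19 (chow-alternating minus high-fat), -0.12 (ketogenic-alternating minus high-fat), -0.22 (ketogenic-alternating minus chow-alternating), 0.064 (chow-alternating minus chow) and -0.014 (ketogenic-alternating minus chow). Comparisons that share a group share its libraries and are not independent of each other.

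**Figure D2:**
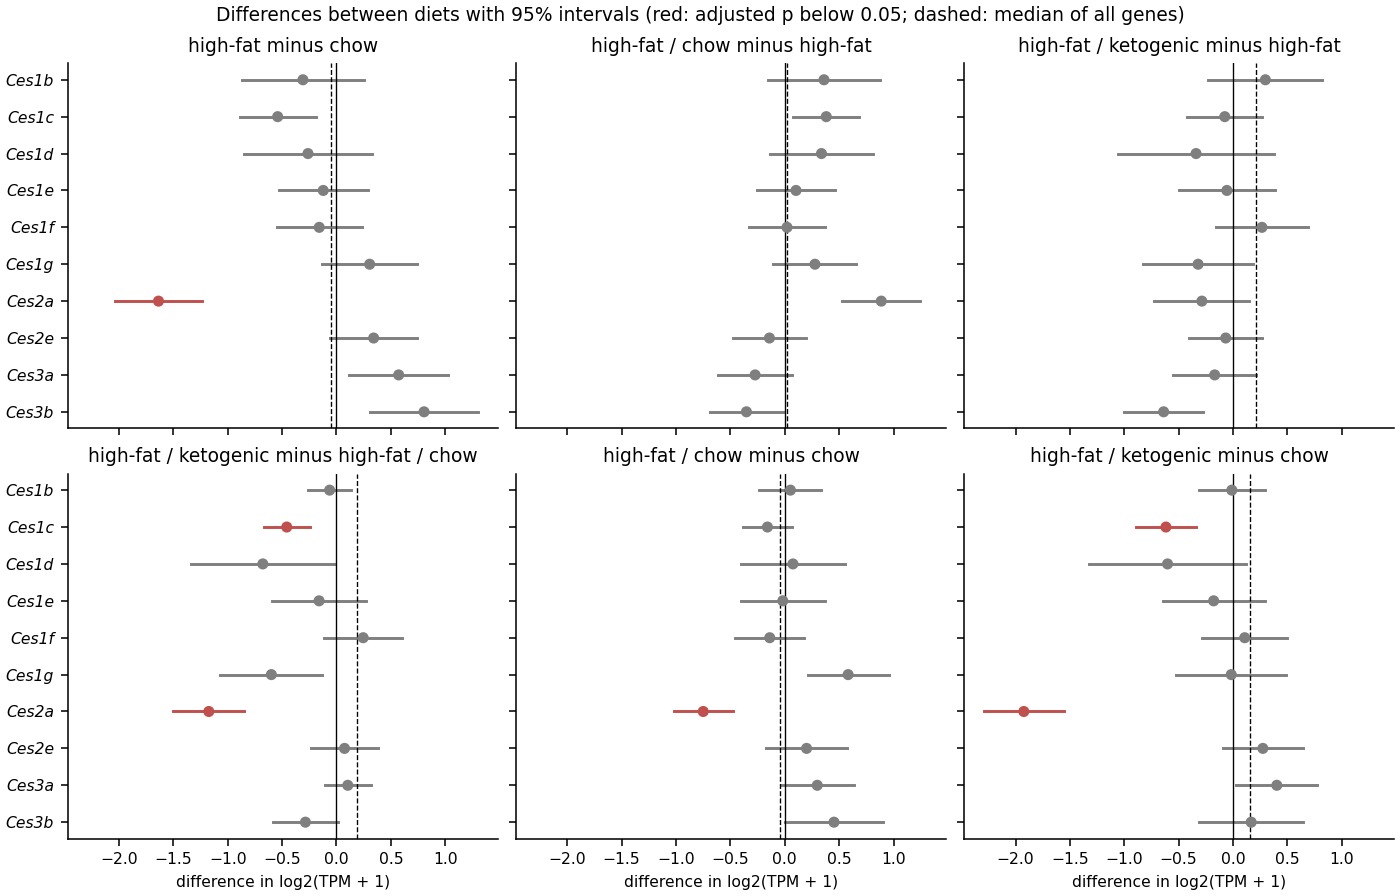
Difference in log2(TPM + 1) between 2 diet groups (horizontal axis) for each of the 10 carboxylesterases (vertical axis) in the 6 comparisons, with 95% intervals from limma, members that changed in red and the median of all genes as a dashed line. Ces2a lies at -1.64, -1.92, -1.17 and -0.75 in the 4 comparisons in which it changed, and Ces1c at -0.62 and -0.46 in 2.

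Ces2a, a carboxylesterase of the second subfamily that hydrolyses acylglycerols as well as drugs, changed in more comparisons than any other member. Its level in the 4 chow libraries was 406, 473, 382 and 365 TPM. In the high-fat libraries it was 118, 100.3, 167 and 141 TPM. The chow-alternating libraries held 225, 237, 226 and 276 TPM and the ketogenic-alternating libraries 76.4, 127, 115 and 113 TPM. Every chow library was thus above every chow-alternating library, which in turn was above every high-fat and every ketogenic-alternating library, and the last 2 groups overlapped. The mean fell by 67.6% from 406 ± 47.1 TPM in chow to 132 ± 28.9 in high-fat libraries (SD, n = 4 each), a log2 difference of -1.64 (SE 0.18, adjusted p = 0.00296). Against chow it fell by 73.5% in ketogenic-alternating libraries (-1.92, SE 0.17, adjusted p = 1.84e-04) and by 40.7% in chow-alternating libraries (-0.75, SE 0.12, adjusted p = 0.0219). The last of these calls was lost when any of chow-alternating replicates 1, 2 and 3 (adjusted p = 0.0753, 0.061 and 0.0721) or chow replicate 2 (0.0528) was left out, and without a filter on low values (0.0607).

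Between the alternating diets, Ces2a was lower in ketogenic-alternating libraries, at 108 ± 21.7 TPM, than in chow-alternating libraries, at 241 ± 23.9 TPM, by -1.17 (SE 0.15, adjusted p = 0.00345). The 1.83-fold higher mean in chow-alternating than in high-fat libraries (0.89, SE 0.17) had rank 9 by p among 10899 genes and an adjusted p of 0.225. It passed the threshold only when high-fat replicate 3, the highest of that group, was left out (1.01, adjusted p = 0.0178). Ketogenic-alternating and high-fat libraries differed by -0.29 (95% interval -0.72 to 0.15, adjusted p = 0.52), an interval that includes 0 and also a decrease of 0.72. The calls against chow in high-fat and ketogenic-alternating libraries and the call between the alternating diets held in all 18 alternative analyses of each, with adjusted p of at most 0.0491. Between the alternating diets, leaving out libraries over 33% in 20 genes removed none, so that alternative only repeats the main fit.

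The promoter windows of Ces2a and of its closest relative Ces2e are shown because the pair differ in how they vary with diet although both lie in 1 cluster. Each window runs from 250 bases before to 50 bases after the start site (RefSeq, GRCm38.p6), 5′ to 3′ along the gene's strand, in lower case, with capitals marking the hexamers AGGTCA or AGTTCA, or their reverse complements, to which nuclear receptors such as CAR and PXR bind in pairs. The first window is chr8:104733753-104734052 and the second is chr8:104926010-104926309, both on the plus strand.
Ces2a: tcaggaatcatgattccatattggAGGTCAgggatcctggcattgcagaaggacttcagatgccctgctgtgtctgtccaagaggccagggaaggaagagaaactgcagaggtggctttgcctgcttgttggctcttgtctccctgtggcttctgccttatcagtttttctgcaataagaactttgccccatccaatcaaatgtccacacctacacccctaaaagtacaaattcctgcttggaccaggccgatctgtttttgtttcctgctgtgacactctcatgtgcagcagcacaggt
Ces2e: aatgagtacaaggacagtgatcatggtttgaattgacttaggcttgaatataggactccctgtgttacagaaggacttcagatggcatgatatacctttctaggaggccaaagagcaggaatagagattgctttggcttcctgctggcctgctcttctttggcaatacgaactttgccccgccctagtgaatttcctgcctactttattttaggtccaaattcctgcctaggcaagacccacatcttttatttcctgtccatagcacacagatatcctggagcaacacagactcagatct
The Ces2a window held AGGTCA once, at base -226 from the start site, and the Ces2e window held neither hexamer. Over the 32851 mouse promoter windows of the same length, 27.7% held at least 1 of these hexamers on either strand, as did the windows of 2 of the 7 carboxylesterases for which a window was found. None of the 8 windows of these 7 genes held a pair as a direct repeat with 1 or 4 bases between or an everted repeat with 6. Each such pair was in at most 0.0822% of all windows. A match describes letters in the window and not a bound site. The 2 windows shared a stretch of 232 aligned bases with 69.4% identity.

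Ces2e did not change in any comparison. Its levels were 116, 102, 71.9 and 88.5 TPM in chow, 101.0, 113, 128 and 134 in high-fat, 133, 89.2, 101.0 and 110.0 in chow-alternating, and 97.5, 128, 127 and 101 in ketogenic-alternating libraries. All 4 groups overlapped, and the difference from chow was 0.34 in high-fat libraries (95% interval -0.056 to 0.74) and 0.27 in ketogenic-alternating libraries (-0.097 to 0.65). The ratio of Ces2a to Ces2e within a library, which no scaling of a library can change, was 3.5 to 5.32 in chow, 1.7 to 2.65 in chow-alternating, 0.886 to 1.31 in high-fat and 0.784 to 1.12 in ketogenic-alternating libraries. Chow libraries therefore held several times more Ces2a than Ces2e RNA, and high-fat and ketogenic-alternating libraries about equal amounts. The ranges of the chow and chow-alternating groups overlapped neither each other nor those of the other groups.

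**Figure D3:**
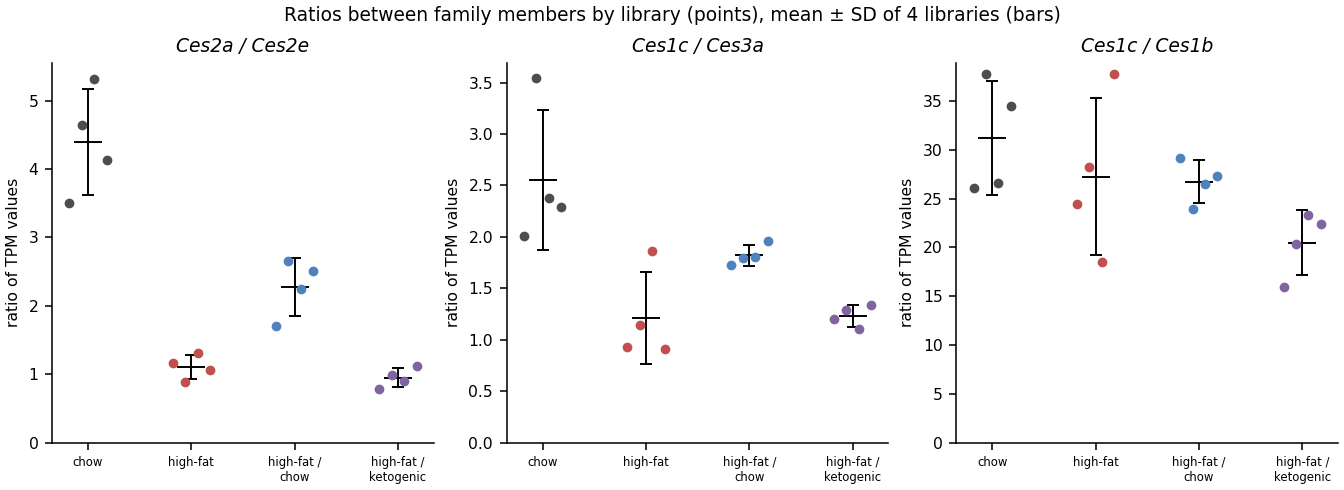
Ratio of TPM values within each library (vertical axis, from 0) for Ces2a over Ces2e, Ces1c over Ces3a and Ces1c over Ces1b in the 4 diet groups, with a point for each library and bars for the mean ± SD of 4. The Ces2a over Ces2e ratio averages 4.4 in chow, 2.27 in chow-alternating, 1.11 in high-fat and 0.946 in ketogenic-alternating libraries.

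Ces1c encodes the main carboxylesterase of mouse plasma. Its level was 2304, 2444, 2210 and 2437 TPM in chow and 2139, 2023, 2039 and 2207 TPM in chow-alternating libraries. In high-fat libraries it was 1378, 1643, 1949 and 1532 TPM and in ketogenic-alternating libraries 1319, 1574, 1581 and 1668 TPM. Every library of the first 2 groups was above every library of the last 2. Ces1c fell by 34.6% in ketogenic-alternating against chow libraries (-0.62, SE 0.13, adjusted p = 0.0175) and by 27.0% against chow-alternating libraries (-0.46, SE 0.09, adjusted p = 0.0251). Relative to the all-gene shift of these comparisons the differences were larger, at -0.79 and -0.67 after median-of-ratios scaling. The call against chow was lost in 7 of 18 alternatives, among them leaving out any of ketogenic-alternating replicates 1, 2 and 3 or chow replicates 2 and 4 (adjusted p up to 0.0688). The call against chow-alternating libraries was lost in 8, among them leaving out any chow-alternating replicate or ketogenic-alternating replicate 2 (up to 0.0757). The summed hepatocyte markers, to which Alb contributed most, were also lower in ketogenic-alternating than in chow and chow-alternating libraries, with no overlap. Single markers did not move one way. Against chow 5 of 10 lay above 0, with a list median of -0.065 against 0.15 for all genes. Apoa1 rose (a call lost by median-of-ratios scaling, adjusted p = 0.193), and Ttr (-0.88) and Tat (-0.98) fell, calls that held by that scaling. Apoa1 (14820 to 20090 against 7867 to 11720 TPM) and Ahsg (6704 to 9545 against 4421 to 5655 TPM) were higher without overlap. Against chow-alternating libraries 1 of 10 lay above 0, with a median of -0.33 against 0.19 for all genes, and none passed the test. By median-of-ratios scaling Serpina1a (-0.55, adjusted p = 0.0436) and Fgb (-0.66, adjusted p = 0.0409) were lower there, and by quantile scaling Serpina1a (-0.31, adjusted p = 0.0389). The part of these markers in the Ces1c result was not tested. The high-fat group, also without overlap with chow, differed by -0.54 (SE 0.16), with an adjusted p of 0.185, or 0.0186 in a fit of all 16 libraries.

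Ces1b, whose coding sequence is closest to that of Ces1c, did not change in any comparison. It stood at 76.6 ± 10.9 TPM in chow, 65.1 ± 28.1 in high-fat, 79.0 ± 4.87 in chow-alternating and 75.6 ± 6.19 in ketogenic-alternating libraries, and its differences lay between -0.31 and 0.36 with adjusted p of at least 0.555. The high-fat libraries spread widest, from 40.5 to 106 TPM. The high-fat group had the lowest mean, and the difference was -0.31 for Ces1b and -0.54 for Ces1c in high-fat minus chow, and 0.36 and 0.38 in chow-alternating minus high-fat. Where Ces1c changed, the genes differed more. In ketogenic-alternating minus chow the difference was -0.011 for Ces1b and -0.62 for Ces1c, and in ketogenic-alternating minus chow-alternating -0.063 and -0.46. Ces1c RNA exceeded Ces1b RNA 15.9-fold to 37.8-fold within libraries, and the ratio overlapped between the chow, high-fat and chow-alternating groups. In ketogenic-alternating libraries the ratio was 15.9 to 23.3, below every chow (26.1 to 37.8) and chow-alternating library (23.9 to 29.2). It overlapped the high-fat range (18.5 to 37.8). No test compared the 2 genes. Their promoter windows, printed for that contrast of level, were nearly alike: over 270 aligned bases the windows of Ces1b and Ces1c were 93.7% identical. Both are on the minus strand, Ces1b at chr8:93079891-93080190 and Ces1c at chr8:93131234-93131533, with the same hexamers in capitals.
Ces1b: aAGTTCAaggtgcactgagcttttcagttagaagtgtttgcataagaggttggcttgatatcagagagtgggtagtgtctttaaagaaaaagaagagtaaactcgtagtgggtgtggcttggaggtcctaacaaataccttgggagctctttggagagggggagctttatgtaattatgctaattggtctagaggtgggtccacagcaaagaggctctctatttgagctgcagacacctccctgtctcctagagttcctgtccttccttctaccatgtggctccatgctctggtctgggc
Ces1c: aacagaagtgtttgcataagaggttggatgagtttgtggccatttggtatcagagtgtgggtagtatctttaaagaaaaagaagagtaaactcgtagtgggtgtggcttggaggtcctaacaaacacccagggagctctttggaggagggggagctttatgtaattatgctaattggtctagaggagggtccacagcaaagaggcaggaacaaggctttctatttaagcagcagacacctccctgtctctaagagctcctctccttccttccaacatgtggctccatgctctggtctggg
The Ces1b window held AGTTCA at base -249, and the Ces1c window held neither hexamer. A second RefSeq start of Ces1b gave an overlapping window with the same match at base -172. The Ces1b transcript measured here starts at base 93080017, which is this second start and not that of the printed window. The second window was 95.7% identical to that of Ces1c over 186 aligned bases.

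The other Ces1 genes did not change in any comparison. Ces1d mobilises stored triacylglycerol for VLDL, and its RNA was 753, 642, 381 and 757 TPM in chow, 350.1, 466, 567 and 726 in high-fat, 712, 537, 560 and 802 in chow-alternating and 193, 438, 522 and 590.0 in ketogenic-alternating libraries. All groups overlapped. The lowest value came from ketogenic-alternating replicate 1, which was the lowest of its group for 8 of the 10 members. Without it the difference between the alternating diets moved from -0.68 (adjusted p = 0.164) to -0.33, and that between ketogenic-alternating and high-fat libraries from -0.34 to 0.011. Chow replicate 3, the library with the largest mitochondrial share, held the lowest chow value of Ces1d and was the lowest chow library for 7 of the 10 members; the part of that share in these values was not tested.

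Ces1g, an enzyme that hydrolyses cholesteryl and triacylglycerol esters, was 152, 122, 95.5 and 104 TPM in chow and 186, 143, 167 and 212 TPM in chow-alternating libraries. These groups overlapped by 1 chow library. The mean was 1.49-fold higher in chow-alternating libraries, by 0.58 (SE 0.17, adjusted p = 0.161), and the adjusted p was 0.0411 when chow replicate 1 was left out. In high-fat libraries Ces1g was 107 to 166 TPM and in ketogenic-alternating libraries 73.4 to 156 TPM. Ces1e, known as egasyn because it anchors beta-glucuronidase in the endoplasmic reticulum, ranged from 55.4 to 121 TPM over all libraries with group means between 83.5 and 93.6. Ces1f ranged from 262 to 445 TPM with group means between 315 and 381. For Ces1e the smallest adjusted p over the 6 comparisons was 0.582 and for Ces1f 0.322. Within the diet groups, deviations of Ces1d, Ces1e and Ces1f from their group means moved together (r = 0.82 to 0.87 over 16 libraries, which share their scaling), as a description without a test. This was not particular to them: Ces1g gave 0.80 with Ces2e and 0.76 with Ces1e, whereas Ces1b gave -0.52 with Ces1f. No r was computed without ketogenic-alternating replicate 1, the lowest of its group for 8 of the 10 members.

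Ces3a and Ces3b, a pair of liver carboxylesterases with nearly the same coding sequence, had their highest means in high-fat libraries but did not pass the test. Ces3b was 271, 234, 135 and 163 TPM in chow and 295, 313, 338 and 419 TPM in high-fat libraries. These 2 groups did not overlap. The mean was 1.70-fold higher in high-fat libraries, by 0.81 (SE 0.23), with an adjusted p of 0.166, or 0.0315 in a fit of all 16 libraries. Against high-fat libraries Ces3b was also lower without overlap in ketogenic-alternating libraries, at 240, 206, 255 and 175 TPM (-0.64, SE 0.17, adjusted p = 0.368). The chow-alternating libraries, at 276, 237, 238 and 316 TPM, overlapped all other groups.

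Ces3a was 1144, 688, 930 and 1064 TPM in chow and 1485, 1443, 1049 and 1692 TPM in high-fat libraries. The mean was 1.48-fold higher in the latter (0.57, SE 0.21, adjusted p = 0.285), and 1 high-fat library lay within the chow range. Chow-alternating libraries held 1125 to 1240.0 TPM and ketogenic-alternating libraries 1099 to 1431 TPM. The sum of Ces3a and Ces3b depends less on how reads were divided between them, though their transcripts differ in length. It was 1157 ± 212 TPM in chow, 1759 ± 296 in high-fat, 1423 ± 70.7 in chow-alternating and 1467 ± 151 in ketogenic-alternating libraries. The ratio of Ces1c to Ces3a was 2.01 to 3.55 in chow, 1.73 to 1.96 in chow-alternating, 0.906 to 1.86 in high-fat and 1.1 to 1.34 in ketogenic-alternating libraries, and was above 1.96 in chow libraries alone.

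Summed over all 10 members, the family held 5278 ± 479 TPM in chow, 4773 ± 445 in high-fat, 5193 ± 379 in chow-alternating and 4320 ± 562 in ketogenic-alternating libraries (SD, n = 4 each). All of these ranges overlapped except that every ketogenic-alternating library, at 3502 to 4750 TPM, was below every chow-alternating library, at 4821 to 5567 TPM. The make-up moved more than the sum. Ces1 genes gave 68.6% of the family's TPM in chow, 65.8% in chow-alternating, 60.7% in ketogenic-alternating and 57.8% in high-fat libraries. Ces3 genes gave 21.9%, 27.5%, 34.2% and 36.9% in the same order of groups, and Ces2 genes 9.53%, 6.72%, 5.12% and 5.25%. The Ces2 share was 8.24% to 11.0% in chow, above every other library, and 6.54% to 6.93% in chow-alternating libraries, above every high-fat (4.54% to 6.11%) and ketogenic-alternating library (4.65% to 5.78%). These sums and shares are descriptions without a test.

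Of 9 other carboxylesterase genes listed, Ces2c and Ces2g were high enough to be tested and neither changed. Ces2c was 8.87 to 32.8 TPM in chow, 17.5 to 32.5 in high-fat, 18.5 to 35.9 in chow-alternating and 11.9 to 17.2 in ketogenic-alternating libraries. The last group lay below every high-fat and chow-alternating library and within the chow range. Ces2g was 13.99 ± 3.13 TPM in chow, 20.6 ± 3.13 in high-fat, 20.7 ± 3.30 in chow-alternating and 18.1 ± 2.44 in ketogenic-alternating libraries. The smallest adjusted p over the 6 comparisons was 0.202 for Ces2g and 0.0896 for Ces2c. Ces4a was listed at 0.0796 to 0.351 TPM in chow and 0.151 to 3.34 TPM in high-fat libraries. Ces2f and Ces5a were listed at 0 in all libraries, and Ces1a, Ces1h, Ces2b and Ces2h did not exceed 0.503 TPM.

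Ces2a was set beside a list of 17 genes taken as targets of CAR and PXR, not all of which are established as such. Among them Cyp2b10 (a classic CAR target), Cyp2c29 and Cyp3a11 encode drug-oxidising cytochromes P450. The list was chosen with earlier results of these data known, so its counts beside the shares of all genes are descriptions. In high-fat against chow libraries 5 of 15 tested list genes fell and none rose, beside 0.484% and 0.575% of all genes. The list median was -0.44 against -0.054 for all genes. Cyp2b10 fell from 12.3 ± 6.47 to 0.684 ± 0.473 TPM (-2.92, adjusted p = 0.00196), Cyp3a11 from 4115 ± 800 to 890 ± 357 TPM (-2.29, adjusted p = 0.00557) and Cyp2c55 from 3.88 to 0.476 TPM (adjusted p = 0.012). In ketogenic-alternating against chow libraries 3 of 15 fell (Cyp2b10, Cyp3a11 and Cyp2c29), where 1.33% of all genes fell and 3.67% rose. Por, the electron donor of P450 enzymes, rose there (0.74), a call lost by median-of-ratios scaling (0.57, adjusted p = 0.0621). In chow-alternating against high-fat libraries, where Ces2a missed the threshold, Cyp2b10 (2.52, adjusted p = 0.00117), Cyp2c29 (1.58, adjusted p = 0.00448) and Cyp2c55 (1.52, adjusted p = 0.0313) rose out of 15. Among all genes 0.0275% rose in that comparison. No list gene changed among 13 tested in ketogenic-alternating against high-fat libraries.

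Between the alternating diets 4 of 15 list genes were lower in ketogenic-alternating libraries, led by Cyp2b10 (-2.87), Cyp2c29 (-1.93) and Cyp3a11 (-1.19), and Cyp2b9 was higher (2.74). Among all genes 0.727% were lower and 4.31% higher there. The Cyp2b9 call was lost by median-of-ratios (adjusted p = 0.0599) and quantile scaling (0.0851), and that of the fourth lower gene, Slco1a4, without mitochondrial genes (0.0531). In chow-alternating against chow libraries Cyp3a11 fell by 1.03 on the log2 scale (adjusted p = 0.0155), beside the decrease of Ces2a, whereas Cyp2c54 (0.97) and Cyp2c50 (0.82) rose. Cyp2c29 was at 823 to 1393 TPM in chow and 1090 to 1790.0 TPM in chow-alternating libraries and Cyp2b10 at 8.39 to 21.98 and 6.18 to 12.3 TPM, so both overlapped between these groups, unlike Ces2a. Nr1i2, which encodes PXR, and Nr1i3, which encodes CAR, did not change in any of the 6 comparisons, with smallest adjusted p of 0.377 and 0.393. Cyp2b, Cyp2c and Cyp3a genes have close relatives, so the split within each family is uncertain.

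**Figure D4:**
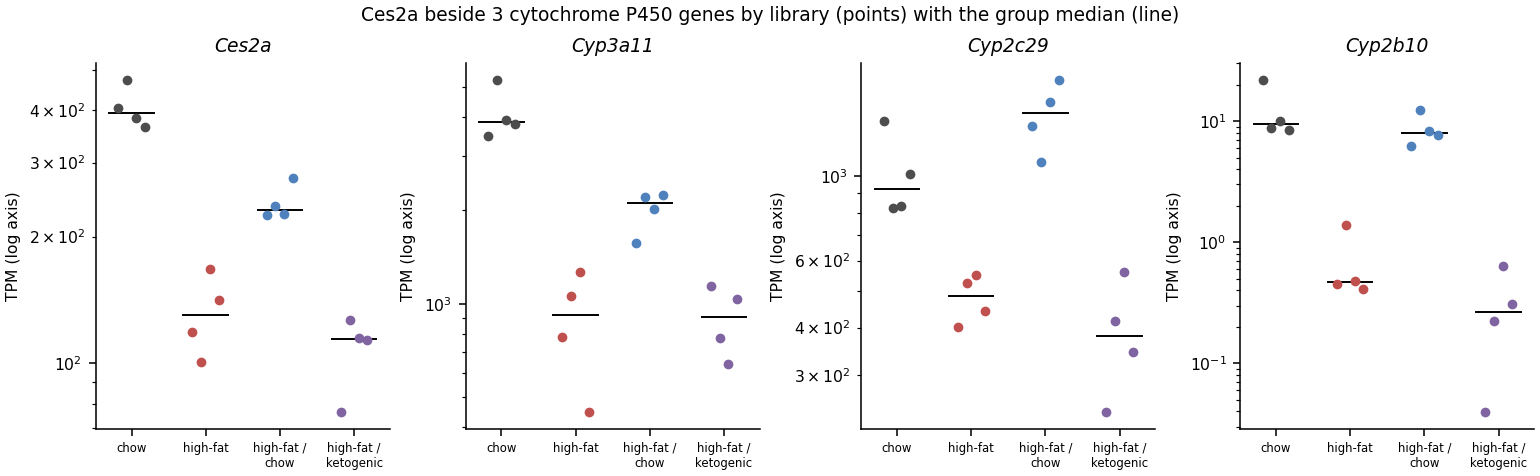
TPM on a log axis (vertical) of Ces2a, Cyp3a11, Cyp2c29 and Cyp2b10 in the 4 diet groups, with a point for each library and a line at the group median. Ces2a and Cyp3a11 medians fall in the order chow, chow-alternating, then high-fat and ketogenic-alternating, whereas Cyp2c29 and Cyp2b10 overlap between chow and chow-alternating libraries.

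The genes outside the family whose log2(TPM + 1) most resembled that of Ces2a over the 16 libraries, among 11041 genes with a mean of at least 1 TPM, were Cyp3a25 (Pearson r = 0.932), Ambp (0.927) and Cyp3a59 (0.903). Leaving out the 2 libraries farthest from the median of Ces2a gave 0.913, 0.911 and 0.878. Deviations from the group means correlated less, at 0.112 for Cyp3a25, 0.461 for Ambp and 0.634 for Cyp3a59, so the likeness lay mostly between groups for the first of them. Mean levels in chow, high-fat, chow-alternating and ketogenic-alternating libraries were 801, 401, 607 and 381 TPM for Cyp3a25. Within the family Ces1c was most like Ces2a (r = 0.941 over all libraries and 0.656 for deviations from group means). These are descriptions of genes picked for their likeness.

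Further lists covered enzymes and pathways that work beside the carboxylesterases. These lists too were chosen with earlier results of these data known, and their counts are descriptions. Of 14 tested neutral lipid and retinyl ester hydrolases, 5 rose in ketogenic-alternating against chow-alternating libraries, beside 4.31% of all genes. They were led by Nceh1 (0.81, adjusted p = 0.00991), Mgll (0.70, adjusted p = 0.0113) and Lipe (0.64, adjusted p = 0.0117). Against chow, Lipe (0.91) and Abhd2 (1.36) rose and Aadac (-0.46), an esterase of the endoplasmic reticulum, fell in ketogenic-alternating libraries. No gene of that list changed in the other 4 comparisons. Of 13 other drug and xenobiotic hydrolases, the epoxide hydrolase Ephx1 fell in chow-alternating against chow libraries (-0.67, adjusted p = 0.0242) and was higher in ketogenic-alternating than in chow-alternating libraries (0.50), and Cmbl rose (0.64) and Aadac fell in ketogenic-alternating against chow libraries. Lipe is also on the adipocyte list that was high in ketogenic-alternating libraries, and the part of adipocyte RNA was not tested.

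Of 13 tested genes of VLDL assembly, Cidec rose in ketogenic-alternating libraries against chow (3.03) and chow-alternating (3.44), where Tm6sf2 (-0.61) and Apoc3 (-0.49) fell respectively, and no gene changed in the other comparisons. In ketogenic-alternating libraries 4.31% of all genes rose against chow-alternating and 3.67% against chow libraries. Of 16 PPAR alpha targets, 9 rose in the former comparison and 4 in the latter. They were led by Vnn1 (1.74 and 1.12), Acadm (0.86 and 0.79) and Fgf21 (2.87 and 2.13). After median-of-ratios scaling these counts were 4 and 4. That of the neutral lipid hydrolases between the alternating diets was 1 by median-of-ratios and 2 by quantile scaling, with the calls of Lipe lost by both and of Mgll by the former. Of the NRF2 targets 4 fell against chow in each of the other 3 diets, with Gsta1, Gsta2 and Gstm1 among them each time. The share of all genes that fell against chow was 0.484% in high-fat, 0.516% in chow-alternating and 1.33% in ketogenic-alternating libraries. In ketogenic-alternating against chow-alternating libraries Srxn1, Gclc and Ugdh rose and Gstm1 fell. By median-of-ratios scaling the calls of Gclc and Ugdh between the alternating diets, of Gstm1 in chow-alternating against chow and of Gstm3 in high-fat against chow libraries were lost. Of 9 tested genes of endoplasmic reticulum retention and folding, Hspa5 (0.97) and Pdia4 (0.66) rose in chow-alternating against chow libraries, beside 0.644% of all genes. Hspa5 (-0.92), Dnajb9 (-0.68) and Pdia4 (-0.50) were lower in ketogenic-alternating than in chow-alternating libraries, beside 0.727% of all genes. The count that rose in the former was 5 by median-of-ratios, 4 by quantile and 3 by scaling without mitochondrial genes, with Hsp90b1 called in each, and the count that was lower in the latter was 5 by median-of-ratios scaling. Of 16 regulators, Gadd45b fell in high-fat against chow libraries, Pparg (1.13) and Ahr (1.02) rose in ketogenic-alternating against chow libraries, and Pparg (1.26) and Rxra (0.63) were higher in ketogenic-alternating than in chow-alternating libraries. The Rxra call was lost by median-of-ratios and quantile scaling, and those of Ephx1 between the alternating diets and of Cmbl against chow by median-of-ratios scaling. The Apoc3 call was lost by quantile scaling.

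At the level of transcripts most members were carried by a single form. The share of the most abundant transcript was 99.5% for Ces1c, 99.1% for Ces1d, 96.3% for Ces1f and 93.2% for Ces2a on average, and Ces1b and Ces1g had a single listed transcript. For Ces2a it was 80.6% to 97.9% over the libraries, with means of 93.1% in chow, 90.9% in high-fat, 95.7% in chow-alternating and 93.3% in ketogenic-alternating libraries, so the same form was most abundant at each level of the gene. Ces1e was divided between 2 forms of 14 exons each, with 51.6% and 45.2%. Ces3a had a main form of 13 exons with 69.9% and a form of 12 exons with 25.6%. The main Ces3a form took 74.6% to 82.1% in chow-alternating libraries and 65.9% to 69.0% in ketogenic-alternating libraries, which did not overlap, 67.9% to 79.6% in chow, which overlapped both, and 40.2% to 71.4% in high-fat libraries. In high-fat replicate 3, at 40.2%, the form of 12 exons was the more abundant, with 54.2%. The main Ces2e form took 89.2% to 94.9% in chow, 84.7% to 88.2% in high-fat, 91.6% to 93.9% in chow-alternating and 83.1% to 93.4% in ketogenic-alternating libraries, and the last range spanned that of the high-fat group and overlapped the other two. Shares of forms that overlap in sequence rest on the authors' estimation, and no test was run on them.

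**Figure D5:**
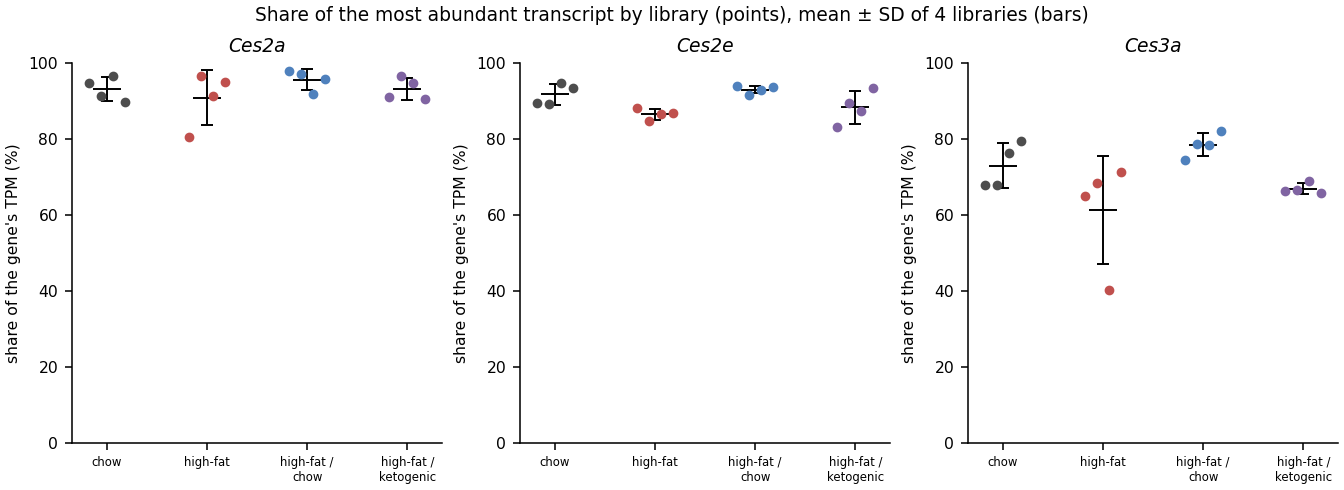
Share of each gene's TPM held by the transcript with its highest mean over all libraries (vertical axis, 0 to 100%). Ces2a, Ces2e and Ces3a are shown in the 4 diet groups, with a point for each library and bars for the mean ± SD of 4. The Ces2a share stays at 80.6% or above in all libraries. The Ces3a share has its lowest library, at 40.2%, in the high-fat group, where the form of 12 exons held 54.2%.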

How the data were processed

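Liver RNA of 16 libraries was prepared with a NEBNext Ultra kit and read as paired ends. Per the series' design text, the authors aligned reads with HISAT2 to mm10 and estimated expression as FPKM with RSEM 1.1.17 on Ensembl release 96, and used edgeR 3.14.0 for their own comparisons. The deposited gene and transcript values summed to 1000000 in every column and were therefore read as TPM, which keep no depth. Strand use in counting is not given in the sources used here.

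Values were taken as log2(TPM + 1). Every comparison used its own 8 libraries. Genes reaching 1 TPM in 4 or more of these were fitted with limma 3.58.1 (R 4.3.3, intensity trend, no covariates), and p-values were adjusted by Benjamini-Hochberg over all genes kept. The fit was tested on simulated data. The members and gene lists were chosen with earlier results of these data known. All 10 members were named, with up to 3 changed genes per list and comparison by adjusted p, the measured other carboxylesterases, and 3 genes most correlated with the member of smallest adjusted p (Ces2a). Positions came from GENCODE vM21, promoters from RefSeq (GRCm38.p6). Coding sequences were aligned with Biopython 1.88. Alternatives covered the pseudocount (0.1), the filter, scaling, the trend, a replicate block, 1 fit of all 16 libraries, and leaving out libraries. Promoters of Ces1d, Ces1f and Ces3a were not used here.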

Additional observations from a re-analysis of the deposited data

Results flagged for a closer look

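In 40 groups of 4 libraries (10 members in 4 diets), 1 value stood apart from the others of its group by Dixon's ratio. Ces3a was 1240.0 TPM in chow-alternating replicate 1, the highest of that group, and 1125 to 1133 TPM in the other 3 libraries, a gap of 0.931 of the group's range. By chance about 1 group in 20 is marked. Ces3a changed in no comparison of that group with or without this library.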

How the results depend on the processing

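TPM hide the depth of each library, so counting error could not be given. Of 1080 values of single members under alternatives, 1015 kept direction and side of the threshold, 20 lost a call, 4 gained a call, and 41 turned sign, none of the latter with an adjusted p below 0.434. The cause was not tested. In ketogenic-alternating minus chow-alternating no library was over 33% in 20 genes. That alternative therefore repeats the main fit, and its values are the same by construction. The number of members that changed in high-fat minus chow was 3 in a fit of all 16 libraries. In ketogenic-alternating minus chow-alternating it was 1 with no filter on low values, 1 with the replicate block and 1 in a fit of all 16 libraries, and 1 to 2 without single libraries. In chow-alternating minus chow it was 0 with no filter and 0 to 2 without single libraries, in ketogenic-alternating minus chow 1 with the replicate block, 1 without the libraries over 33% in 20 genes and 1 to 2 without single libraries, and in chow-alternating minus high-fat 0 to 1 without single libraries. Replicate numbers showed no clear pairing of the samples. Correlations of same-numbered deviations from group means ran from -0.58 to 0.386, and at most 2 of 4 pairs exceeded 0.1 in any comparison. No comparison had all 8 libraries closest to their own number (at most 4). With 4 libraries in a group, this check cannot exclude a pairing. With the replicate block Ces1c had an adjusted p of 0.0563 in ketogenic-alternating minus chow and 0.0771 in ketogenic-alternating minus chow-alternating, and no other call of a member changed. Under the other scalings, counts over all genes moved by over 1.5 times in ketogenic-alternating minus chow-alternating (554, against 271 by median-of-ratios and 280 by quantile scaling), in chow-alternating minus chow (126 against 214 by median-of-ratios) and in ketogenic-alternating minus chow (555 against 862 by quantile scaling). Gene list counts under other scalings were added after seeing the data.
The sign turned by median-of-ratios scaling for Ces2e (-0.14) and Ces3a (-0.11) in ketogenic-alternating minus chow-alternating, Ces1e (0.030) in chow-alternating minus chow, and Ces1f (-0.067) and Ces3b (-0.0067) in ketogenic-alternating minus chow. By quantile normalization it turned for Ces1f (-0.039) in chow-alternating minus high-fat and Ces2e (-0.017) in ketogenic-alternating minus chow-alternating. It turned without mitochondrial genes for Ces1b (-0.0040) in chow-alternating minus chow. Without the libraries over 33% in 20 genes it turned for Ces1f (-0.023) and Ces1e (-0.044) in chow-alternating minus high-fat, Ces1b (-0.00058) and Ces1d (-0.23) in chow-alternating minus chow, and Ces1f (-0.033) in ketogenic-alternating minus chow. Without single libraries, values that turned ran from -0.21 to 0.0098 for Ces1e in high-fat minus chow and from -0.062 to 0.13 for Ces1f in chow-alternating minus high-fat. In ketogenic-alternating minus high-fat they ran as Ces1d -0.52 to 0.011, Ces1e -0.20 to 0.12, Ces2e -0.14 to 0.0023 and Ces1c -0.15 to 0.015. In ketogenic-alternating minus chow-alternating they ran as Ces1e -0.30 to 0.021 and Ces2e -0.013 to 0.18. In chow-alternating minus chow they ran as Ces1e -0.12 to 0.11, Ces1d -0.15 to 0.18 and Ces1b -0.025 to 0.12. In ketogenic-alternating minus chow they ran as Ces1e -0.32 to 0.0029, Ces1g -0.16 to 0.20, Ces1b -0.088 to 0.059 and Ces3b -0.0060 to 0.33.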
